A study of Mus musculus with 20 samples.

Results

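The genotype by training interaction asks, gene by gene, whether 6 weeks of wheel running changed the heart differently in mice whose labels give a PGC-1α knockout in heart muscle cells than in wild-type mice. It is the training change in labelled knockout hearts minus the training change in wild-type hearts, so a negative value means that trained labelled knockout hearts came out lower than the training change of wild type would put them. All 20 libraries of the series enter it, and 13723 of the 25851 genes in the deposited table, those with a mean of at least 0.5 FPKM (fragments per kilobase of exon, scaled to the depth of each library), were tested. The 4 groups of 5 male mice, all 14 to 16 weeks old, were trained labelled knockout (voluntary wheel running for 6 weeks), sedentary labelled knockout, trained wild type (the same running) and sedentary wild type. The labels place the knockout in cardiomyocytes but do not name the promoter of the deleter, the deleted exons or the strain. RNA came from a piece of heart of each mouse, and whether replicate mice shared litters or cages is not stated, so p-values measure the spread between these 20 samples.

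PGC-1α, the protein of Ppargc1a, is a transcriptional coactivator that binds nuclear receptors such as ERRα and PPARα, and works with the nuclear respiratory factors, to raise transcription of genes for mitochondrial respiration and fuel oxidation. Endurance exercise loads the heart with volume and work, to which a healthy heart adapts by physiological growth, whereas a heart under pathological load shifts to fetal contractile genes, lays down collagen and lowers oxidative genes. GDF15, a stress cytokine, is named in the series title as suppressed through PGC-1α.

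Levels below are FPKM, given as mean ± SD over 5 hearts or for every heart, and changes are differences of log2(FPKM + 0.5) with SE, which understate the change of genes with low levels. A gene is called when its limma p, adjusted by the Benjamini-Hochberg method over the 13723 genes, is under 0.05. Sequencing depth was 14.2 to 30.4 M recovered reads per library. Some libraries stood apart. Arntl, the core clock gene for BMAL1, was above 2 FPKM in 4 of 5 sedentary wild-type hearts and in replicate 1 of the sedentary labelled knockout hearts, and in no trained heart. Myl7, the atrial myosin light chain, was above 1000 FPKM in replicates 2 and 5 of the trained labelled knockout hearts and in replicates 4 and 5 of the trained wild-type hearts. The mitochondrial genome gave 15.0% of all reads in trained labelled knockout, 17.8% in sedentary labelled knockout, 18.1% in trained wild-type and 20.3% in sedentary wild-type hearts. Ppargc1a itself was higher, not lower, in labelled knockout than in wild-type hearts in both states, by 0.55 trained (limma adjusted p = 0.0387) and 0.88 sedentary (limma adjusted p = 0.0047). A gene total need not show a deletion of part of the gene, so the groups are named by their labels throughout.

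The interaction called 1005 genes, 7.32% of those tested. Of these, 686 had a negative interaction (5.00%) and 319 a positive one (2.32%). The median absolute interaction of the called genes was 0.59. Within the genotypes, training called 3892 genes in labelled knockout hearts (28.4%), of which 1656 rose (12.1%) and 2236 fell (16.3%). In wild-type hearts it called 750 (5.47%), of which 403 rose (2.94%) and 347 fell (2.53%). These directions depended on the scaling of the libraries: under TPM scaling, described below, 4052 rose and 630 fell in labelled knockout hearts and 186 and 54 in wild type, and with a common sum without the mitochondrial genome 2872 and 918 in labelled knockout hearts and 188 and 341 in wild type. The training changes of both genotypes, which share no library, had a Pearson correlation across genes of 0.422 and a Spearman correlation of 0.314 (13723 genes, which are not independent replicates). Without the 4 libraries with high Myl7, which are 2 of the 5 trained hearts of each genotype, the correlations were 0.233 and 0.199. Of the genes that rose in wild type, 207 also rose in labelled knockout hearts, which is 51.4% of the wild-type list and 12.5% of the labelled knockout list. Of those that fell in wild type, 180 also fell in labelled knockout hearts, which is 51.9% and 8.05% of the lists.

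Each called gene was sorted by its training change in either genotype. Because the sorting uses the contrasts that make up the interaction, the counts below describe and are not tested. The great majority, 885 genes or 88.1% of those called, changed with training in labelled knockout hearts and passed no threshold in wild type. Of these knockout-only genes, 616 fell in labelled knockout hearts, with a median training change of -0.54 there and of -0.01 in wild type, and 269 rose, with medians of 0.79 and -0.0038. This split, too, depended on the scaling, with 53 negative and 331 positive interactions among the knockout-only genes under TPM scaling and 60 and 543 with a common sum without the mitochondrial genome. Training responses present in wild type and not called in labelled knockout hearts (lost) numbered 45. Another 11 genes changed the same way in both genotypes and more in labelled knockout hearts (amplified), and 6 changed in opposite directions (reversed). Of the genes called by the interaction, 0 changed the same way in both genotypes with a smaller response in labelled knockout hearts (dampened), and 58 passed in neither genotype alone.

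**Figure D1:**
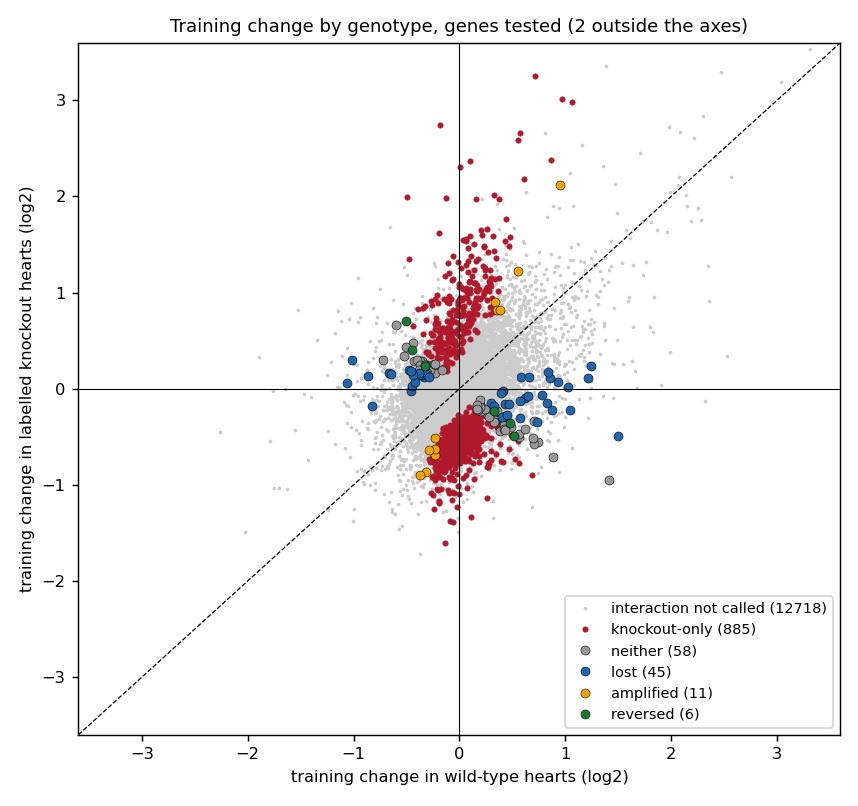
Training change of every gene tested in labelled knockout hearts (vertical axis, log2) against that in wild-type hearts (horizontal axis, log2), with 1 point per gene, coloured by response class, equal changes on the dashed line, and 2 genes outside the axes. The 885 knockout-only genes form vertical clouds above and below the horizontal axis near a wild-type change of 0, and the 45 lost genes lie along the horizontal axis.

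These counts rest on the hearts and the scaling used. The deposited FPKM carry median-ratio scaling, and summed FPKM differ by group, so TPM scaling moved the median interaction of all genes to 0.15 and the share of positive calls to 85.7%, from 31.7% (348 positive and 58 negative). Scaling to a common sum without the mitochondrial genome moved them to 0.19 and 90.5% (627 and 66). Without the 4 high-Myl7 libraries 497 positive and 800 negative interactions were called. With log2 Arntl as a covariate 83 and 184 were called, and 252 of the 1005 genes were among them. Leaving out the 5 high-Arntl libraries keeps 1 sedentary wild-type heart, which is then assumed to vary like the others, and left 1 positive and 0 negative calls, with 1164 genes at an unadjusted p under 0.05. High Arntl marks 4 of the 5 sedentary wild-type hearts and no trained one, so within wild type the Arntl level and training cannot be told apart.

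Subunits of the respiratory chain made up the most uniform group. Of 36 tested nuclear subunits of complex I, which passes electrons from NADH to ubiquinone, 34 had a called negative interaction and none a positive one. The same held for 34 of 38 genes of complexes III to V, a list that includes cytochrome c and the adenine nucleotide carriers. Median interactions were -0.63 and -0.57, against -0.01 over all genes tested. Training lowered 35 of the 36 complex I genes and 35 of the 38 others in labelled knockout hearts, with median changes of -0.66 in both lists, whereas 1 and 0 fell in wild type, where the medians were -0.05. In bulk tissue fewer cardiomyocytes and less of these transcripts per cell cannot be told apart.

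Ndufs3, a core subunit of the ubiquinone-reducing arm of complex I (minus strand, chr2:90894634-90904827 in GRCm38), had 75.2, 76.7, 75.2, 69.3 and 80.0 FPKM in trained and 123, 123, 138, 127 and 126 FPKM in sedentary labelled knockout hearts. In wild type it had 134, 151, 156, 132 and 123 FPKM in trained and 142, 138, 147, 154 and 160.0 FPKM in sedentary hearts. All 5 trained labelled knockout hearts were below all other 15 hearts, and the trained and sedentary wild-type hearts overlapped. The interaction was -0.66 ± 0.10 (limma adjusted p = 0.00462). Atp5g1, which encodes subunit c of the ATP synthase ring, averaged 79.5 ± 4.46 FPKM in trained and 132 ± 8.84 FPKM in sedentary labelled knockout hearts, and 175 ± 21.0 FPKM in trained and 172 ± 4.28 FPKM in sedentary wild-type hearts. Its interaction was -0.75 ± 0.10 (limma adjusted p = 0.00462), and no trained labelled knockout heart reached the level of any other heart. Uqcrfs1, the Rieske iron-sulfur protein of complex III, was likewise lowest in trained labelled knockout hearts, with 380.4 ± 16.6 against 614 ± 25.1 FPKM in labelled knockout and 703 ± 68.7 against 751 ± 38.5 FPKM in wild-type hearts. Cox7a1, the muscle form of a complex IV subunit, had the most negative interaction of these lists, at -0.99 (limma adjusted p = 0.00825). The 2 complex I genes that missed the threshold were Ndufs1, which also fell in wild type (-0.56 in labelled knockout, -0.35 in wild type), and Ndufa12, with a wide error (-0.73 ± 0.53). The others that missed it, Cox6a1, Cox8a, Uqcrc2 and Atp5k, had values of -0.33, -0.30, -0.27 and -0.54.

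**Figure D2:**
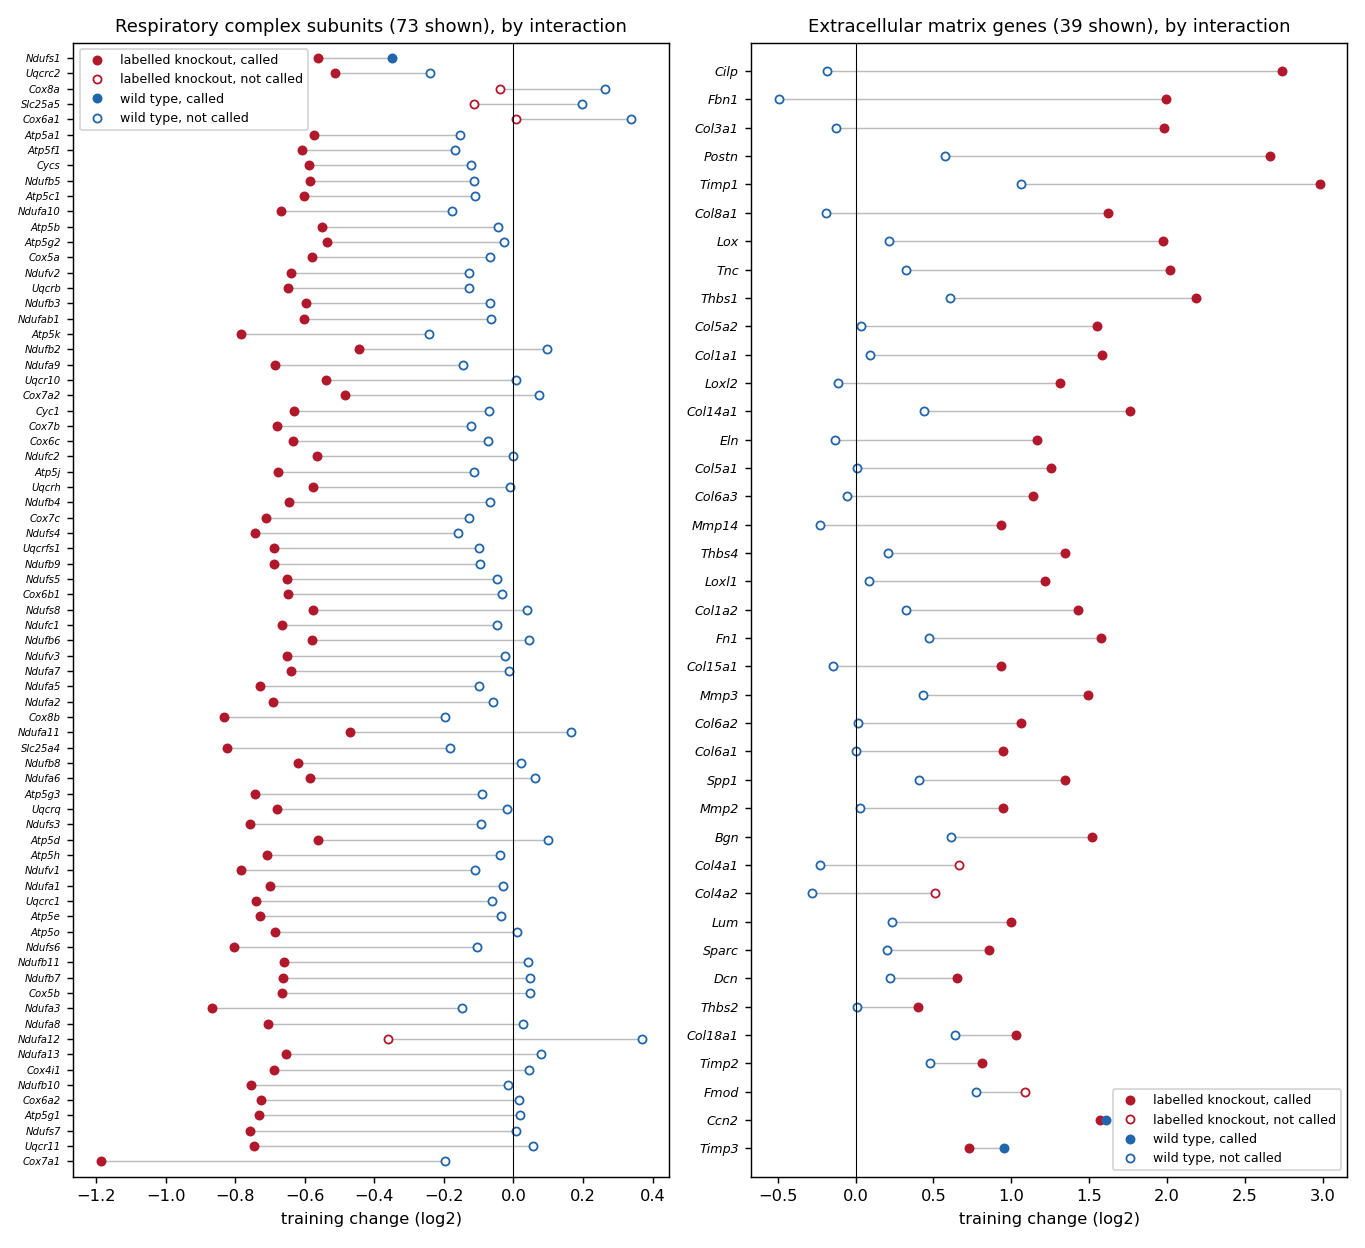
Training change (log2) of 73 of the 74 tested subunits of complexes I and III to V (left) and each extracellular matrix gene (right) in labelled knockout hearts (red) and wild-type hearts (blue), ordered by interaction, with filled points called within the genotype. Most red points on the left lie between -0.5 and -0.8 and the blue ones near 0, and on the right the red points reach 2.99 for Timp1.

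Because these genes moved together, their start sites were searched for 4 short motifs of factors tied to PGC-1α, to exercise signalling or to the clock. Windows of 250 bases before to 50 bases after the start site were taken from RefSeq on GRCm38.p6, which matched 61 of the 74 subunit genes and 9701 of all genes tested, and letters were matched on both strands. The palindromic nuclear respiratory factor 1 element, whose letters are in capitals in the Uqcrc1 window, was in 8.2% of subunit windows (5 of 61), against 2.29% of all tested genes. The cAMP response element TGACGTCA was in 8.2% (5 windows), against 3.44%, and the E-box CACGTG in 6.56% (4 windows), against 11.7%. The estrogen-related receptor element TCAAGGTCA was in 1.64% (1 window), against 0.361%. None of the 4 was in any of the 26 matched windows of extracellular matrix genes. Genes with a called negative interaction had 532 matched windows. Of these, 7 held the nuclear respiratory factor 1 element (1.32%) and 56 the E-box, both lower shares than in all tested genes. The cAMP response element was in 21 (3.95%) and the estrogen-related receptor element in 3 (0.564%), both higher shares than in all tested genes. A subunit window of each kind is printed to show where such letters lie, with the motif in capitals. That of Uqcrc1, a core protein of complex III, is on the plus strand at chr9:108936398-108936697, with the nuclear respiratory factor 1 element starting 31 bases after the start site. That of Atp5g3, a further subunit c gene, is on the minus strand at chr2:73911277-73911576, with the estrogen-related receptor element on the opposite strand and an E-box upstream of it. That of Uqcrfs1 is on the minus strand at chr13:30545267-30545566, with the cAMP response element 29 bases before the start site.
Uqcrc1: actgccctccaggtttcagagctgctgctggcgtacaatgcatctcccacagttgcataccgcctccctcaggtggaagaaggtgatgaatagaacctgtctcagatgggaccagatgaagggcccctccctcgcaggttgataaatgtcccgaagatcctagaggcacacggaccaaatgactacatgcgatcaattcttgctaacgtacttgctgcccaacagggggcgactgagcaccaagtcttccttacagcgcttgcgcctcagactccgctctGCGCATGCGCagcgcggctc
Atp5g3: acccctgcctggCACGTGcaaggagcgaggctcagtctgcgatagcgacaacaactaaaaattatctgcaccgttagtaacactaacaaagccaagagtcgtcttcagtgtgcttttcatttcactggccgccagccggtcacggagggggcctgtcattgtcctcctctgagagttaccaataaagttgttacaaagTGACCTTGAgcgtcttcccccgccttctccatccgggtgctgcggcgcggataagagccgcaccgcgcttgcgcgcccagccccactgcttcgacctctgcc
Uqcrfs1: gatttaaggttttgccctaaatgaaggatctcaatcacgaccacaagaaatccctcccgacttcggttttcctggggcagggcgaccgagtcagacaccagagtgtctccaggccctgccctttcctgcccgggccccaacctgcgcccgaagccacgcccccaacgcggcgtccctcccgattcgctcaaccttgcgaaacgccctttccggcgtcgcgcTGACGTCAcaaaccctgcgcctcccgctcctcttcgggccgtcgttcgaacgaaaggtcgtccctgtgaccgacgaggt
The interactions of the 3 genes were -0.68 for Uqcrc1, -0.65 for Atp5g3 and -0.59 for Uqcrfs1. These 3 are examples, and whether a motif goes with the interaction was not tested.

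The enzymes that feed the chain moved the same way. Of 26 genes of the citric acid cycle and pyruvate entry, 16 had called negative interactions and 0 positive ones (median -0.39), and training lowered 25 in labelled knockout and 3 in wild-type hearts. Leaving out 1 library gave 11 to 17 negative calls, the fewest without replicate 3 of trained labelled knockout. Mdh2, mitochondrial malate dehydrogenase, had 189.6, 194, 190.1, 176 and 204 FPKM in trained and 285, 301, 333, 302 and 304 FPKM in sedentary labelled knockout hearts. Wild-type hearts had 361, 367, 400.5, 326 and 336 FPKM when trained and 334, 342, 363, 409 and 391 FPKM when sedentary. The trained labelled knockout hearts again lay below all others (interaction -0.64 ± 0.10, limma adjusted p = 0.00567). Mpc2, a subunit of the mitochondrial pyruvate carrier, had an interaction of -0.68 ± 0.11 (limma adjusted p = 0.00578), and Sdhb, the iron-sulfur subunit of complex II, one of -0.64 (limma adjusted p = 0.00705).

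Oxidation of other fuels was less uniform. Among 34 genes of fatty acid uptake and oxidation, 6 had called negative interactions (median -0.32), and 12 of the 34 already fell with training in wild type, beside 26 in labelled knockout hearts. Called members were Acaa2 and Eci1, which act on shortened or unsaturated acyl chains, Etfb, the electron carrier of the acyl-CoA dehydrogenases, and Acads, Echs1 and Eci2, with interactions of -0.84, -0.66, -0.82, -0.49, -0.44 and -0.39. Of 25 genes for ketone body and branched-chain amino acid oxidation 8 were called, all negative (median -0.30), among them Bckdhb of the branched-chain keto acid dehydrogenase (-0.73) and Ivd, which acts in leucine breakdown (-0.52). Glucose uptake and glycolysis gave 6 negative calls of 25 (median -0.24), led by Ldhb, the heart form of lactate dehydrogenase, at -0.72 ± 0.12 (limma adjusted p = 0.00568). Antioxidant enzymes gave 5 of 23 (median -0.20), including the peroxiredoxins Prdx5 (-0.66) and Prdx2 (-0.51) and the superoxide dismutases Sod1 (-0.54) and Sod2 (-0.39). These counts moved when 1 library was left out, to 2 to 10 for fatty acids (2 without replicate 3 of sedentary labelled knockout or 2 of sedentary wild type), 6 to 10 for ketone and amino acid oxidation, 3 to 7 for glycolysis and 3 to 6 for antioxidant enzymes. The last 2 lists gave 3 without any 1 of replicates 1, 3 and 4 of trained and 2, 3 and 5 of sedentary labelled knockout, 3 of trained and 1, 2 and 3 of sedentary wild type, and antioxidant enzymes also without replicate 4 of sedentary labelled knockout. Under TPM scaling the calls of Eci1 (-0.47), Echs1 (-0.26), Prdx5 (-0.47) and Prdx2 (-0.32) were lost. Scaling to a common sum without the mitochondrial genome lost the same calls. With log2 Arntl as a covariate those of Eci1 (-0.64) and Echs1 (-0.47) were lost. The Ldhb call was kept in these fits.

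Mitochondrial ribosomal proteins, a list chosen after values had been seen, held 40 negative calls of 81 (median -0.40), and all 81 values were negative. Assembly factors of the respiratory complexes, chosen in the same way, had 6 of 32 (median -0.25), and mitochondrial solute carriers 10 of 38 (median -0.19). Leaving out 1 library gave 26 to 47 calls for mitochondrial ribosomal proteins (26 without replicate 3 of sedentary labelled knockout), 3 to 10 for assembly factors and 5 to 11 for solute carriers. Cytosolic ribosomal proteins had 7 negative calls of 85 (median -0.29), beside 5.00% of all genes tested, led by Rpl3l, the striated muscle paralog of Rpl3 (-1.01), and that count ran from 1 without replicate 4 of trained or 3 of sedentary labelled knockout to 28 without replicate 1 of trained wild type. The 15 measured transcripts of the mitochondrial genome gave 1 call, the ribosomal RNA mt-Rnr1 (-0.75 ± 0.20, limma adjusted p = 0.0346), and their median training change was -0.49 in labelled knockout hearts, where 7 fell, and -0.39 in wild type, where 1 fell. Without any 1 of replicates 1 and 3 of trained labelled knockout, 2, 3 and 5 of sedentary labelled knockout, 2 and 3 of trained wild type and 1 and 2 of sedentary wild type, mt-Rnr1 was not called, with interactions of -0.78 to -0.70.

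Among 21 genes of the PGC-1 family and its partner factors, 2 were called, both negative, beside 7.32% of all genes tested. The list median was 0.01, with 13 positive and 8 negative values. Leaving out 1 library gave 1 to 3 negative and 0 to 1 positive calls. Esrra, which encodes the nuclear receptor ERRα, had 46.6, 47.6, 49.0, 50.9 and 48.8 FPKM in trained and 61.1, 61.2, 62.0, 64.3 and 62.4 FPKM in sedentary labelled knockout hearts. Wild-type hearts had 85.8, 93.5, 87.9, 84.8 and 86.4 FPKM when trained and 85.9, 92.6, 79.0, 88.4 and 87.9 FPKM when sedentary. The labelled knockout groups overlapped neither each other nor wild type, and the wild-type groups overlapped (interaction -0.37 ± 0.07, limma adjusted p = 0.00716). The call was lost under TPM scaling and scaling without the mitochondrial genome. Sirt3, a mitochondrial deacetylase, had an interaction of -0.36 ± 0.11 (limma adjusted p = 0.0439), which was not called in 16 of the 20 fits that leave out 1 library (-0.39 to -0.33 in these) and was called without replicate 2 of trained or 1 of sedentary labelled knockout, or without replicate 5 of trained or 1 of sedentary wild type.

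**Figure D3:**
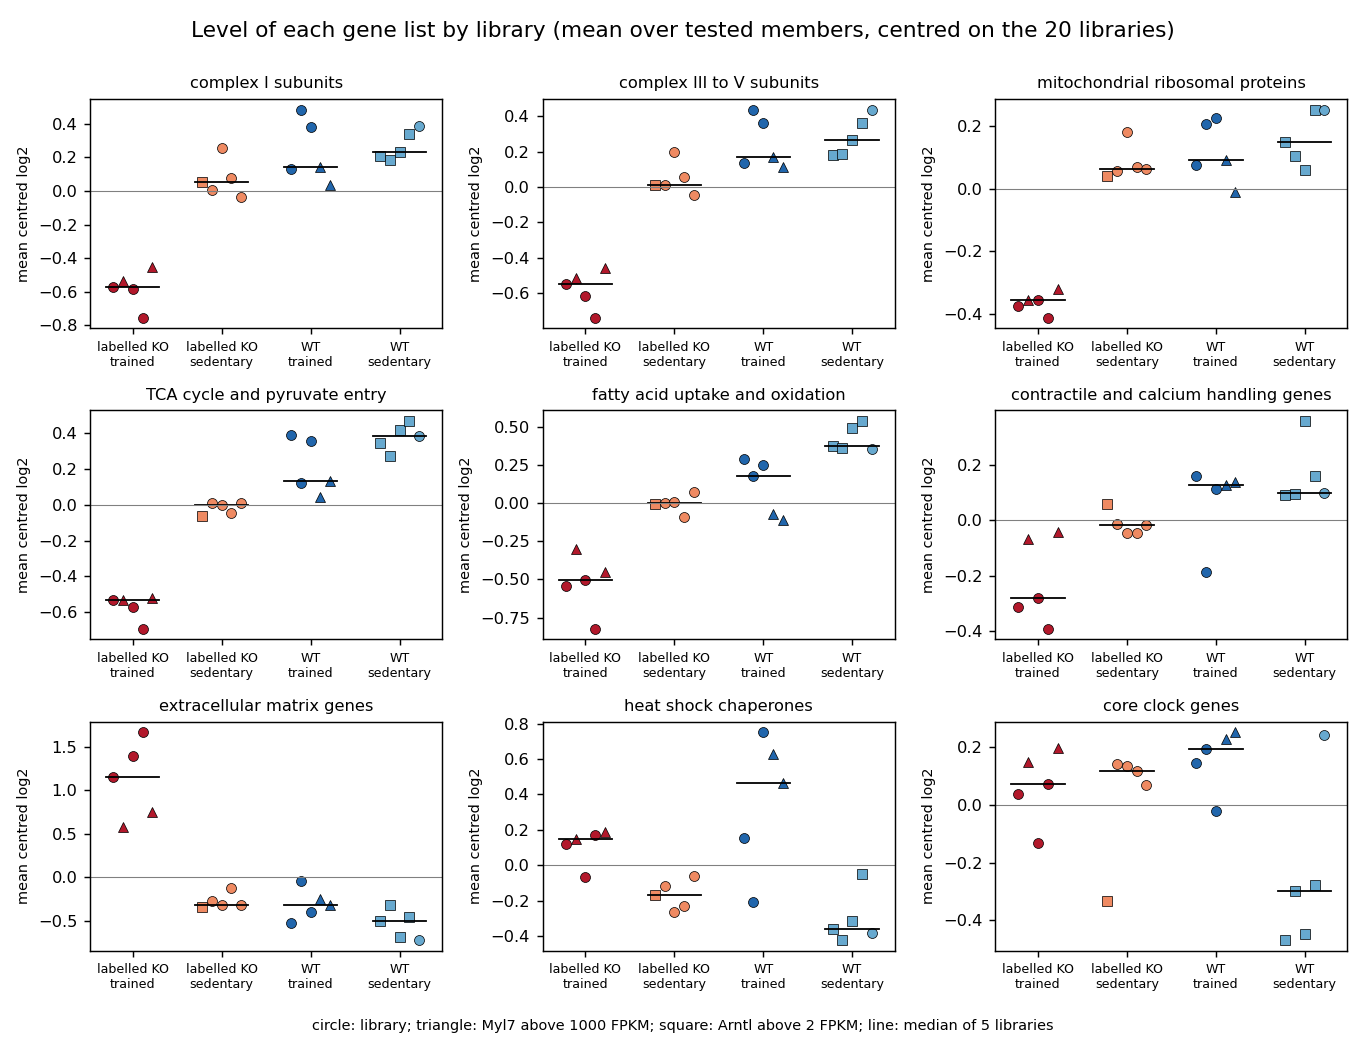
Level of 9 gene lists in every library, as the mean over tested members of log2(FPKM + 0.5) centred on the 20 libraries, with groups along the horizontal axis, lines at the median of 5 libraries, triangles for Myl7 above 1000 FPKM and squares for Arntl above 2 FPKM. Trained labelled knockout hearts lie apart from the other groups for the respiratory, mitochondrial ribosomal and citric acid cycle lists (median -0.57 for complex I) and for the extracellular matrix (1.15), while core clock genes separate by the squares.

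The calls of these lists depended on the same choices as the total. Under TPM scaling 6 complex I and 7 complex III to V genes were called, although their medians stayed 0.59 and 0.53 below that of all genes. With log2 Arntl as a covariate 19 and 15 were called (medians -0.57 and -0.51), and without the 5 high-Arntl libraries 0 and 0 (-0.50 and -0.45). Without the 4 high-Myl7 libraries 34 and 32 were called (-0.78 and -0.72), and leaving out any single library gave 31 to 34 and 30 to 35 calls.

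Markers of cardiomyocytes moved the same way in part. Summed over 10 cardiomyocyte markers, the level was 14700 to 17000 FPKM in trained labelled knockout, 21400 to 25100 in sedentary labelled knockout, 18100 to 23800 in trained wild-type and 21100 to 26500 in sedentary wild-type hearts, and no marker was at 0. Of the 10, 2 had called negative interactions, Tnni3 and Tnnt2, and the median was -0.29. In sign 8 were negative and 2 positive, from -0.963 to 0.505. Under TPM scaling the median was -0.09, against 0.15 over all genes. With a common sum without the mitochondrial genome it was -0.05, against 0.19. Each of these scalings gave 1 negative call. The part of these markers in the respiratory result was not tested.

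Contractile genes moved in both directions. Tnni3, cardiac troponin I, had 686, 823, 701, 572 and 914 FPKM in trained and 1335, 1324, 1697, 1331 and 1314 FPKM in sedentary labelled knockout hearts. In wild type it had 1916, 2639, 2297, 2020.0 and 2011 FPKM in trained and 1869, 1993, 2172, 2157 and 2430.0 FPKM in sedentary hearts. The labelled knockout groups did not overlap and the wild-type groups did (interaction -0.96 ± 0.17, limma adjusted p = 0.00702). Of 25 contractile and calcium handling genes 4 were called, all negative, the others being Tnnt2 (-0.45), the sarcoplasmic calcium buffer Hrc (-0.68) and the titin cap Tcap (-1.21). Leaving out 1 library gave 2 to 8 negative calls. Tcap passed in neither genotype alone (-0.51 in labelled knockout, 0.70 in wild type). Its high-Arntl sedentary wild-type hearts had 822 to 1579 FPKM and the low-Arntl one 2639 FPKM. The high-Arntl sedentary labelled knockout heart had 921 FPKM, the lowest of its group. The part of Arntl in the Tcap value was not tested. Myh6, the adult fast cardiac myosin, was not called (-0.51, limma adjusted p = 0.0718).

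Myh7, the slow myosin heavy chain that predominates in the fetal mouse ventricle, went the other way. It had 348, 246, 436, 548 and 193 FPKM in trained and 84.2, 107, 116, 165 and 112 FPKM in sedentary labelled knockout hearts, against 64.7, 76.3, 80.5, 69.1 and 66.3 FPKM in trained and 48.9, 76.4, 54.2, 79.4 and 89.7 FPKM in sedentary wild-type hearts. Every trained labelled knockout heart was above every other heart, and the lowest of them, replicates 2 and 5, were those with high Myl7. The interaction was 1.47 ± 0.33 (limma adjusted p = 0.0152). Among 22 fetal and stretch genes 3 were called positive (Myh7, the LIM protein gene Fhl1 at 0.77, and Xirp2 at 1.26) and 2 negative (Tnni2 at -1.32 and Tnnt1 at -0.94, troponins of fast and slow skeletal muscle). Tnni2 was not called without any 1 of 12 libraries (-1.37 to -1.14). It is also 1 of the markers of skeletal muscle fibres, whose 8 measured genes summed to 4.22 to 7.58 FPKM in trained labelled knockout, 5.45 to 22.4 in sedentary labelled knockout, 1.59 to 4.01 in trained wild-type and 1.65 to 3.47 in sedentary wild-type hearts. The 4 of them that were tested had negative interactions, with a median of -0.81 and Tnni2 as the 1 call, and 1 marker each was at 0 in all trained labelled knockout and in all sedentary wild-type hearts. The part of these fibres in the Tnni2 and Tnnt1 values was not tested. The natriuretic peptide genes were not called, with 0.13 ± 1.64 for Nppa and 0.70 ± 0.64 for Nppb.

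The hairpin of Mir208b lies in an intron of Myh7 on the same strand (minus strand, chr14:54975700-54975776 in GRCm38) and is known to be made from the Myh7 transcript. Its deposited value counts poly-A library reads over the hairpin and is no measure of the mature miRNA. It had 290.1, 334, 188, 189 and 458 FPKM in trained and 521, 649.9, 995, 692 and 689 FPKM in sedentary labelled knockout hearts. Trained wild-type hearts had 488, 1053, 676, 798 and 873 FPKM and sedentary ones 468, 649, 603, 777 and 1178 FPKM. So the reads over the hairpin fell with training in labelled knockout hearts (-1.33) while Myh7 rose (1.53), with interactions of -1.44 ± 0.38 (limma adjusted p = 0.0298) and 1.47. The Mir208b call was lost without any 1 of 7 libraries (replicates 3 and 4 of trained and 3 of sedentary labelled knockout, 2 of trained and 1, 2 and 3 of sedentary wild type, with interactions of -1.41 to -1.29) and with log2 Arntl as a covariate (-0.93, limma adjusted p = 0.134). Whether the counting used strand is not given in the sources used here, and Myh7 also overlaps the antisense RNA Mhrt. Many other genes described overlap a further gene model, so reads of such pairs may be shared, and those named here are examples. On the same strand Tnni3 overlaps Dnaaf3, Nmb overlaps Sec11a and Slc25a47 overlaps Mir345. On the opposite strand Ndufs3 overlaps Kbtbd4, Depp1 overlaps Rassf4, Timp1 overlaps Syn1, Timp4 overlaps Syn2, and Esrra and Prdx5 overlap Trmt112. Prdx2 overlaps Junb and Rnaseh2a there, and Ppargc1a overlaps 4 gene models over both strands. The mature sequences from RefSeq are shown because their seeds (bases 2 to 8, in capitals) define the targets of the miRNA whose host gene moved.
mmu-miR-208b-3p: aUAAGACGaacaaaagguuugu
mmu-miR-208b-5p: aAGCUUUUugcucgcguuaugu

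Genes of the extracellular matrix formed the main positive group. Of 39 tested, 24 had called positive interactions and 0 negative ones, with a median of 1.11, against -0.01 over all genes. Training raised 36 of the 39 in labelled knockout hearts (median 1.31) and 2, Ccn2 and Timp3, in wild type (median 0.20). Ccn2, connective tissue growth factor, rose in both genotypes (1.57 in labelled knockout, 1.61 in wild type) with an interaction of -0.04 ± 0.60. Called members included the fibrillar collagens Col1a1 (1.49), Col1a2 (1.11), Col3a1 (2.11), Col5a1 (1.24) and Col5a2 (1.52), the collagen VI chains Col6a1, Col6a2 and Col6a3 (0.943 to 1.197), elastin and the crosslinking enzymes Loxl1 and Loxl2 (1.13 and 1.42).

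Col3a1, the chain of type III collagen (plus strand, chr1:45311538-45349706 in GRCm38), had 142, 51.8, 169.6, 192 and 55.7 FPKM in trained and 33.3, 29.7, 24.6, 23.2 and 22.9 FPKM in sedentary labelled knockout hearts. Wild-type hearts had 25.3, 38.4, 29.1, 24.0 and 16.6 FPKM when trained and 30.1, 30.6, 27.0, 32.2 and 21.9 FPKM when sedentary. The other 3 groups overlapped one another and lay below all trained labelled knockout hearts, of which replicates 2 and 5, with high Myl7, were lowest. The interaction was 2.11 ± 0.43 (limma adjusted p = 0.00947). Thbs1, thrombospondin 1, a matricellular protein that activates latent TGF-β, had 8.85, 8.22, 12.4, 14.3 and 10.3 FPKM in trained and 2.23, 2.27, 2.26, 2.03 and 1.14 FPKM in sedentary labelled knockout hearts, against 2.35, 3.42, 3.47, 2.68 and 2.04 FPKM in trained and 1.74, 1.97, 2.48, 1.58 and 0.771 FPKM in sedentary wild-type hearts. Its groups separated in the same way, and the high-Myl7 hearts were within the range of the other trained labelled knockout hearts but for replicate 2, the lowest (interaction 1.58 ± 0.29, limma adjusted p = 0.00705). Prg4, which encodes the lubricating proteoglycan lubricin, averaged 16.1 ± 5.36 FPKM in trained and 2.71 ± 1.06 FPKM in sedentary labelled knockout hearts, and 2.65 ± 0.116 and 2.49 ± 0.601 FPKM in trained and sedentary wild-type hearts (interaction 2.26 ± 0.32, limma adjusted p = 0.00462).

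The largest positive interaction among genes named by the selection rule was that of Cilp, a matrix protein known from cartilage and from scarred heart, at 2.93 ± 0.74 (limma adjusted p = 0.0242). It had 49.5, 14.4, 63.7, 91.5 and 17.8 FPKM in trained and 3.76, 3.81, 3.57, 16.3 and 4.31 FPKM in sedentary labelled knockout hearts, where replicate 4 of the sedentary hearts overlapped the trained ones. Wild-type hearts had 1.95, 6.77, 2.31, 1.87 and 0.983 FPKM when trained and 3.25, 5.07, 1.17, 3.11 and 2.17 FPKM when sedentary. Other matrix genes called positive were the microfibril genes Fbn1 (2.49 ± 0.68) and Ltbp2 (2.03 ± 0.56), periostin of activated fibroblasts (Postn, 2.08 ± 0.60) and the metalloprotease inhibitor Timp1 (1.93 ± 0.50). Without any 1 of 11, 9, 12 and 6 libraries these 4 were not called (2.18 to 2.43, 1.73 to 2.08, 1.72 to 2.16 and 1.72 to 1.91), nor was Cilp without replicate 3 of trained or of sedentary labelled knockout or replicate 2 of sedentary wild type (2.73 to 2.80). Timp4, the inhibitor most abundant in heart muscle, had the opposite sign (-1.40 ± 0.39, limma adjusted p = 0.038, not called without any 1 of 12 libraries, at -1.41 to -1.25). With log2 Arntl as a covariate the calls of Cilp (2.85), Fbn1 (1.70), Ltbp2 (2.21), Postn (2.10), Timp1 (1.95) and Timp4 (-0.97) were lost. Under TPM scaling those of Postn (2.28) and Timp4 (-1.22) were lost. The calls of Col3a1, Thbs1 and Prg4 were kept in both fits.

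**Figure D4:**
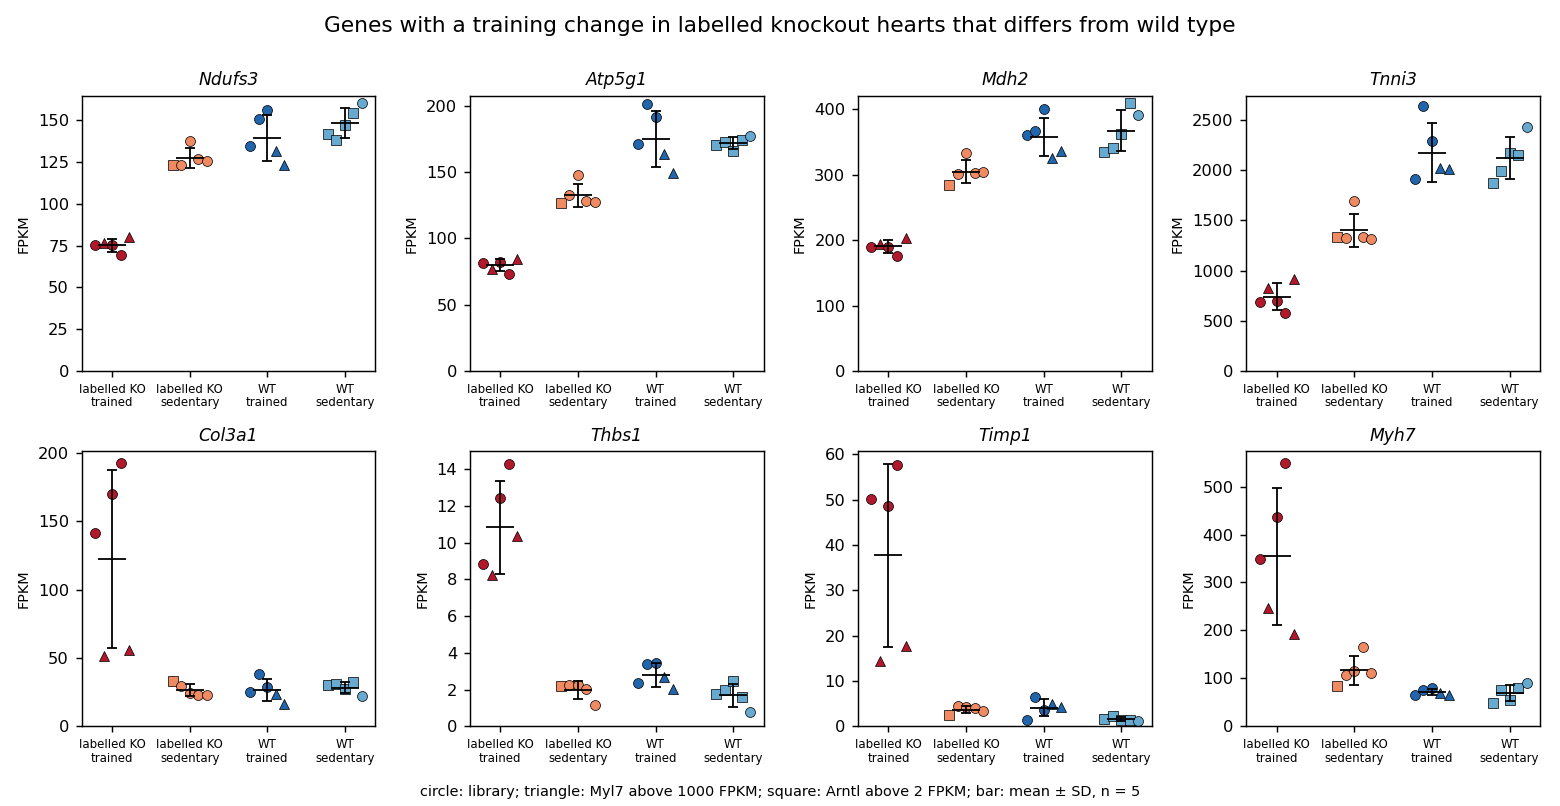
FPKM of 8 genes in every heart (linear axes from 0), with groups along the horizontal axis, bars at mean ± SD of 5 hearts, triangles for Myl7 above 1000 FPKM and squares for Arntl above 2 FPKM. Trained labelled knockout hearts are lowest for Ndufs3 (75.3 ± 3.9 FPKM), Atp5g1, Mdh2 and Tnni3, and highest for Col3a1 (122 ± 65 FPKM), Thbs1, Timp1 and Myh7.

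The extracellular matrix list gave 23 positive calls under TPM scaling, 28 without the high-Myl7 libraries (median 1.37), 10 with log2 Arntl as a covariate (0.98) and 0 without the high-Arntl libraries (0.89). Leaving out 1 library gave 14 to 26, with 14 without replicate 2 of sedentary wild type and 15 without replicate 3 of trained labelled knockout. Fibroblast markers moved with the list: 4 of 10 were called positive (Col1a1, Col3a1, Lum and Pi16), with a median of 0.72, while the defining markers Pdgfra (0.69, limma adjusted p = 0.0825) and Tcf21 (0.24, limma adjusted p = 0.469) were not. Leaving out 1 library gave 2 to 5 fibroblast calls, the fewest without replicate 3 of trained or 2 of sedentary wild type. The summed level of the 10 was 1150 to 1620 FPKM in trained labelled knockout, 737 to 986 in sedentary labelled knockout, 646 to 1160 in trained wild-type and 625 to 805 in sedentary wild-type hearts, with no marker at 0, and its part in the matrix result was not tested. Col1a1 and Col3a1 stand in both lists.

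Macrophage genes were positive as a group. All 9 tested markers had positive interactions, 3 of them called (Adgre1 at 1.22, Mrc1 at 1.10 and Csf1r at 0.63), with a median of 0.65. Training raised all 9 in labelled knockout hearts and 0 in wild type. Adgre1, which encodes the surface protein F4/80, had 13.7, 6.46, 13.1, 14.2 and 7.75 FPKM in trained and 4.28, 4.58, 3.35, 3.83 and 4.16 FPKM in sedentary labelled knockout hearts, and 3.86, 4.18, 3.43, 3.09 and 3.01 FPKM in trained and 4.29, 3.78, 3.01, 3.33 and 2.41 FPKM in sedentary wild-type hearts. All trained labelled knockout hearts were above all others, the high-Myl7 replicates 2 and 5 least so. The markers summed to 357 to 646 FPKM in trained labelled knockout, 266 to 302 in sedentary labelled knockout, 169 to 308 in trained wild-type and 162 to 240 in sedentary wild-type hearts. With log2 Arntl as a covariate 0 were called (median 0.74), and without the high-Myl7 libraries 6. Leaving out 1 library gave 1 to 6, with 1 without any 1 of replicates 1, 3 and 4 of trained labelled knockout and 1 and 2 of sedentary wild type. Ccl8, a chemokine that attracts monocytes, had an interaction of 2.54 ± 0.57 (limma adjusted p = 0.0138), with 39.5, 7.66, 16.8, 12.8 and 9.54 FPKM in trained and 0.966, 2.14, 0.379, 1.202 and 1.15 FPKM in sedentary labelled knockout hearts and 0.684, 3.88, 1.17, 0.837 and 1.04 and 1.10, 0.856, 0.228, 0.428 and 0.529 FPKM in trained and sedentary wild-type hearts. Endothelial, endocardial, smooth muscle, T and B cell, neutrophil, erythroid, adipocyte, epicardial, Schwann cell and atrial markers gave 0 calls in either direction by limma, and skeletal muscle fibre markers gave 1, Tnni2. Only 1 of 10 T and B cell markers (interaction 0.80), 3 of 10 neutrophil (median 0.54) and 5 of 10 Schwann cell markers (median -0.12) were tested. Their 0 calls therefore do not show that these cell types changed alike.

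Single genes outside these lists carried some of the larger values. Nmb, which encodes the peptide neuromedin B, had 2.70, 3.29, 1.72, 1.75 and 4.21 FPKM in trained and 3.35, 4.39, 6.84, 6.45 and 6.26 FPKM in sedentary labelled knockout hearts, against 4.16, 5.18, 3.18, 4.45 and 4.93 FPKM in trained and 1.80, 1.65, 3.02, 3.79 and 2.78 FPKM in sedentary wild-type hearts. Trained hearts were low in labelled knockout and mostly high in wild type, with overlap in both genotypes (interaction -1.58 ± 0.33, limma adjusted p = 0.0101). Slc25a33, a mitochondrial pyrimidine nucleotide carrier, averaged 8.23 ± 2.59 FPKM in trained and 14.5 ± 4.04 FPKM in sedentary labelled knockout hearts, and 16.3 ± 1.21 and 11.4 ± 4.09 FPKM in trained and sedentary wild-type hearts (interaction -1.33 ± 0.33, limma adjusted p = 0.0213). Iscu, the scaffold on which iron-sulfur clusters are built, averaged 34.3 ± 3.50 against 46.2 ± 1.197 FPKM in labelled knockout and 50.1 ± 2.11 against 43.6 ± 2.87 FPKM in wild-type hearts (interaction -0.63 ± 0.09, limma adjusted p = 0.00471). Kcnip2, the accessory subunit of the transient outward potassium channel, fell with training in labelled knockout hearts (-0.81) and did not pass in wild type (-0.16), with an interaction of -0.65 (limma adjusted p = 0.0126). Vegfb, a growth factor of the VEGF family made by heart muscle, was the 1 called member of 24 angiogenic genes (-0.54, limma adjusted p = 0.00619). Serpina3n, a secreted protease inhibitor of the acute phase, averaged 83.4 ± 50.8 FPKM in trained and 8.15 ± 1.36 FPKM in sedentary labelled knockout hearts, and 7.83 ± 1.93 and 3.77 ± 1.13 FPKM in trained and sedentary wild-type hearts (interaction 2.05 ± 0.50, limma adjusted p = 0.0216). Under TPM scaling the calls of Iscu (-0.44), Kcnip2 (-0.46) and Vegfb (-0.35) were lost. With log2 Arntl as a covariate those of Slc25a33 (-0.91) and Serpina3n (1.88) were lost.

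The knockout-only genes can also be set against the genotype difference, which shares libraries with the interaction and is given as values only. Of all genes tested, 27.9% differed by genotype in trained hearts (12.5% higher and 15.4% lower in labelled knockout) and 13.3% in sedentary hearts (6.96% higher and 6.32% lower). Of the 616 that fell, 544 differed by genotype in trained hearts and 185 in sedentary hearts, and of the 269 that rose, 243 and 28. For complex I the median genotype difference was -0.81 in trained and -0.21 in sedentary hearts, with 36 and 13 of 36 genes called lower. For the extracellular matrix it was 1.21 and 0.15, with 33 and 5 of 39 called higher. For the citric acid cycle list the sedentary difference was already -0.42, and -0.77 in trained hearts.

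Among the 6 reversed genes, Ctsc, which encodes the lysosomal protease cathepsin C that activates leukocyte proteases, had 10.03, 7.62, 8.97, 8.89 and 7.37 FPKM in trained and 6.94, 6.89, 6.45, 5.51 and 6.03 FPKM in sedentary labelled knockout hearts. In wild type the order was opposite, with 5.06, 5.97, 4.91, 4.88 and 5.41 FPKM in trained and 8.26, 6.83, 7.50, 7.08 and 6.88 FPKM in sedentary hearts. The training changes were 0.40 in labelled knockout and -0.44 in wild-type hearts (interaction 0.84 ± 0.12, limma adjusted p = 0.00462), and within each genotype the trained and sedentary hearts did not overlap. Ptafr, the receptor for platelet-activating factor, changed by 0.70 in labelled knockout and -0.50 in wild-type hearts at levels under 2 FPKM (interaction 1.205 ± 0.20, limma adjusted p = 0.00568).

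Slc25a47, a mitochondrial carrier known mainly from liver, was reversed in the other direction. It had 1.75, 1.53, 1.43, 1.27 and 1.75 FPKM in trained and 1.91, 2.62, 2.73, 2.10 and 2.60 FPKM in sedentary labelled knockout hearts, against 2.48, 3.85, 3.82, 4.12 and 3.07 FPKM in trained and 1.64, 2.20, 2.56, 2.27 and 2.65 FPKM in sedentary wild-type hearts. The labelled knockout groups did not overlap, and in wild type replicate 1 of the trained hearts lay among the sedentary ones (interaction -1.01 ± 0.18, limma adjusted p = 0.00702). The others were Apba3 (-0.56), Cd276, a B7 family immune ligand (0.56), and the predicted gene Gm8730 (-0.83). The class is thin at its thresholds: its arms had adjusted p-values of up to 0.0462 in labelled knockout and 0.045 in wild type, and 85 genes fell in it when an unadjusted p under 0.05 counted as a response.

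The 11 amplified genes were C3, Zfp36l2, Gfpt2, Kirrel and Fam129a, which rose, and Mccc2, Pdhb, Ivd, Mrpl3, Rilpl1 and Gm49708, which fell, in both genotypes. C3, the central complement component, had 116 ± 34.0 FPKM in trained and 25.7 ± 4.53 FPKM in sedentary labelled knockout hearts, and 49.6 ± 13.3 and 25.2 ± 5.64 FPKM in trained and sedentary wild-type hearts. The training changes were 2.12 in labelled knockout and 0.95 in wild-type hearts (interaction 1.17 ± 0.30, limma adjusted p = 0.0255). The C3 call was lost without replicate 3 of trained labelled knockout, replicate 3 of trained wild type or replicate 1 of sedentary wild type, with interactions of 1.09 to 1.13. It was also lost with log2 Arntl as a covariate (1.08, limma adjusted p = 0.0959). Mccc2 and Ivd act in leucine breakdown, and Pdhb is a subunit of pyruvate dehydrogenase. Their changes were -0.69, -0.89 and -0.63 in labelled knockout and -0.23, -0.38 and -0.23 in wild-type hearts. The interaction calls of Mccc2 and Pdhb were lost under TPM scaling (-0.279 and -0.208). They were also lost with a common sum without the mitochondrial genome (-0.235 and -0.165). The Zfp36l2 call was kept under both scalings.

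**Figure D5:**
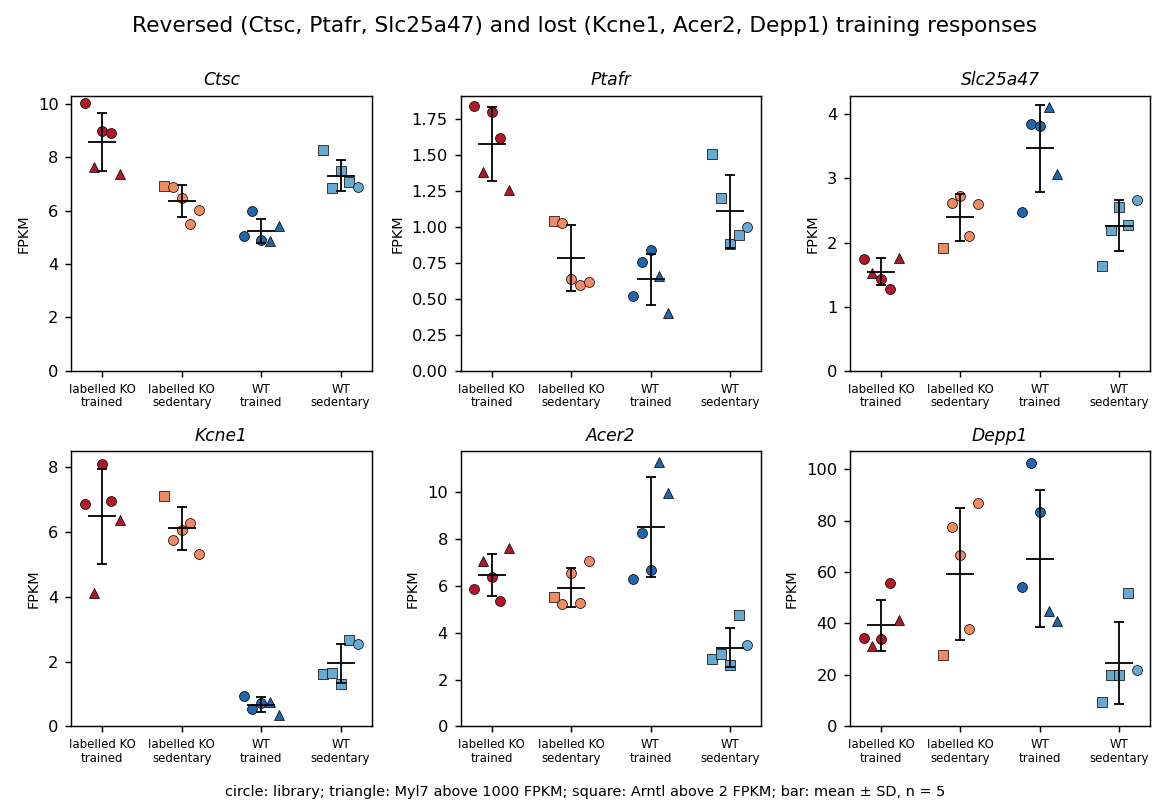
FPKM in every heart (linear axes from 0) of 3 reversed genes (top) and 3 lost genes (bottom), with groups along the horizontal axis, bars at mean ± SD of 5 hearts, triangles for Myl7 above 1000 FPKM and squares for Arntl above 2 FPKM. Ctsc and Ptafr are highest in trained labelled knockout hearts and lower in trained than in sedentary wild-type hearts, and Kcne1 differs between the wild-type groups (0.664 ± 0.230 FPKM trained, 1.95 ± 0.603 FPKM sedentary) and overlaps between the labelled knockout ones.

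Of the 45 lost genes, 27 rose and 18 fell in wild type. Acer2, a Golgi ceramidase that frees sphingosine, had 5.87, 7.07, 6.38, 5.37 and 7.64 FPKM in trained and 5.55, 5.22, 6.54, 5.26 and 7.07 FPKM in sedentary labelled knockout hearts, which overlapped. Wild-type hearts had 6.31, 8.28, 6.70, 11.3 and 9.96 FPKM when trained and 2.87, 3.11, 2.62, 4.75 and 3.46 FPKM when sedentary, which did not overlap. The interaction was -1.10 ± 0.22 (limma adjusted p = 0.00825). Kcne1, the accessory subunit of the slow delayed rectifier potassium channel, had 6.86, 4.10, 8.10, 6.97 and 6.37 FPKM in trained and 7.11, 5.76, 6.07, 6.26 and 5.33 FPKM in sedentary labelled knockout hearts (change 0.06). In wild type it fell by 1.06, to 0.948, 0.529, 0.728, 0.765 and 0.351 FPKM in trained hearts, against 1.63, 1.63, 1.31, 2.65 and 2.54 FPKM in sedentary ones. Its level was thus higher in every labelled knockout heart than in any wild-type heart (interaction 1.12 ± 0.25, limma adjusted p = 0.0138). Further lost genes were Ahsa1, an activator of the chaperone HSP90 (-0.45), the macrophage chemokine receptor Cx3cr1 (1.32, at group means of 0.275 to 1.11 FPKM) and Zbtb7b (0.46). A class set by 1 genotype passing and the other not rests on the interaction test alone for the difference itself, which all 45 passed.

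A further 3 genes, Depp1 (lost), Arrdc2 (in neither genotype alone) and Klf15 (knockout-only), are given with the Arntl level of the hearts. Depp1, a target of FoxO factors, had 34.5, 31.1, 33.9, 55.9 and 41.2 FPKM in trained and 27.6, 77.5, 66.5, 37.7 and 86.9 FPKM in sedentary labelled knockout hearts, where the lowest sedentary value is that of the high-Arntl heart. Wild-type hearts had 54.2, 102, 83.4, 44.7 and 41.0 FPKM when trained and 9.45, 20.0, 20.1, 51.7 and 22.1 FPKM when sedentary, where the highest sedentary value is that of a high-Arntl heart, replicate 4, and the low-Arntl replicate 5 had 22.1 FPKM. Its interaction of -1.99 ± 0.53 (limma adjusted p = 0.0307) was -1.74 with log2 Arntl as a covariate (limma adjusted p = 0.126, with a range of 0.00184 to 0.317 over the alternatives), and it was not called without any 1 of 10 libraries (-1.97 to -1.70). Arrdc2, an arrestin-domain gene with the most negative interaction named (-2.36 ± 0.68, limma adjusted p = 0.0421), had 7.06, 10.49, 6.09, 6.37 and 12.3 FPKM in trained and 6.31, 17.2, 25.2, 15.4 and 25.5 FPKM in sedentary labelled knockout hearts. Wild-type hearts had 9.43, 30.4, 11.3, 16.4 and 20.4 FPKM when trained and 3.04, 2.88, 3.05, 21.8 and 9.67 FPKM when sedentary. The high-Arntl sedentary labelled knockout heart, replicate 1, was the lowest of its group, whereas among sedentary wild-type hearts the high-Arntl ones were both the lowest (replicates 1 to 3) and the highest (replicate 4). Klf15, a glucocorticoid and clock dependent regulator of cardiac metabolism, was at -1.10 ± 0.32 (limma adjusted p = 0.0439) and also not called with that covariate (-0.86). Without any 1 of 14 and 13 libraries Arrdc2 and Klf15 were not called (-2.48 to -2.13 and -1.13 to -0.98). Of 19 tested core clock genes 0 were called, with a median of -0.44, and the values that miss the threshold do not show that clock genes changed alike.

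Lists of exercise and stress responses gave 0 to 3 interaction calls each, read beside 7.32% of all genes tested. The heat shock chaperones lay above that share. Of 29 immediate early genes 15 rose in labelled knockout and 11 in wild-type hearts, and 1, Gem, was called (1.01, not called without any 1 of 6 libraries, at 0.95 to 1.01). Nr4a3, an orphan nuclear receptor induced by exercise, changed by 2.02 in labelled knockout and 2.14 in wild-type hearts (interaction -0.13 ± 0.50). Of 24 heat shock chaperones 3 rose and 3 fell in labelled knockout hearts and 9 rose and 0 fell in wild type, and 3 had called interactions, all negative: the HSP90 cochaperones Fkbp4 and Ahsa1 and the mitochondrial chaperonin Hspe1. Leaving out 1 library gave 1 to 6 negative calls in this list. The calls of Fkbp4 and Ahsa1 were lost under TPM scaling (-0.298 and -0.26) and with log2 Arntl as a covariate (-0.51 and -0.456). Hspa1a, inducible HSP70, changed by 2.63 in labelled knockout and 4.16 in wild-type hearts, and the interaction of -1.53 ± 0.94 was not called (limma adjusted p = 0.302). Of 30 genes of the integrated stress response 12 rose and 2 fell in labelled knockout hearts and 6 rose and 1 fell in wild type, and 1 interaction was called, that of Pycr1, an enzyme of proline synthesis (0.67, not called without any 1 of 10 libraries, at 0.61 to 0.69). Of 22 genes of the unfolded protein response 3 rose and 1 fell in labelled knockout hearts and 0 changed in wild type, and 0 interactions were called by limma. Igf1, the growth factor, had a positive interaction (0.94 ± 0.24, limma adjusted p = 0.0257), which was not called without any 1 of 6 libraries (0.85 to 0.92).

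Neither gene of the series title showed a called interaction. Gdf15 (minus strand, chr8:70629393-70632456 in GRCm38) had 36.0, 15.6, 44.9, 48.2 and 12.2 FPKM in trained and 18.0, 14.8, 11.6, 22.6 and 18.6 FPKM in sedentary labelled knockout hearts. Wild-type hearts had 1.78, 1.15, 3.17, 1.65 and 0.824 FPKM when trained and 2.37, 1.15, 1.13, 1.45 and 0.729 FPKM when sedentary. Replicates 2 and 5 of the trained labelled knockout hearts, those with high Myl7, lay within the range of the sedentary ones and the other 3 above it. The interaction was 0.47 ± 0.49 with a 95% interval of -0.56 to 1.51 (limma adjusted p = 0.553). Ppargc1a (minus strand, chr5:51454250-51567726) averaged 22.6 ± 3.01 FPKM in trained and 22.9 ± 4.41 FPKM in sedentary labelled knockout hearts, and 15.8 ± 4.86 and 12.2 ± 2.85 FPKM in trained and sedentary wild-type hearts. Its interaction was -0.34 ± 0.27 with an interval of -0.90 to 0.23 (limma adjusted p = 0.432), and these intervals hold differences of up to 1.51 and 0.90 in size.

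The threshold itself divides neighbours of equal strength. Just inside it were Higd2a (-0.35), Gm9869 (1.05) and Apeh (-0.40), each at an adjusted p of 0.04997, and just outside Ict1os (-0.65), Dtx3l (0.75) and Gm10221 (-0.51), at 0.05018 to 0.05035 (limma).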

How the data were processed

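Heart RNA of 20 mice was sequenced after poly-A selection with a strand-specific kit. Tools named in the submitters' processing notes, with no role, are featureCounts 1.5.0-p3, HISAT2 2.0.5 and DESeq2 1.20.0, and the build is mm10. The authors deposited FPKM per gene for 25851 genes, and nothing states whether counting used strand. Multiplied by GENCODE exon length, 96.5% of genes gave whole reads in every library (within 0.01). The library size behind the FPKM, divided by the median-ratio factor of these reads, was 0.997 to 1.003 of its mean over libraries. This showed that the FPKM were scaled by median-ratio factors. Genes with a mean of at least 0.5 FPKM were fitted as log2(FPKM + 0.5) with limma 3.58.1 in R 4.3.3 (trend, 1 fit of 4 groups, 16 residual degrees of freedom, two-sided, Benjamini-Hochberg). The script was tested on simulated data. Members, lists, libraries that stand apart and classes were chosen with earlier results of these data known. Named genes are Ppargc1a, Gdf15, the 10 largest interactions per direction, the 4 smallest p per class and up to 2 per list. Alternatives changed pseudocount, filter, scaling, model, covariates and libraries. Replicate numbers were not used to pair the samples, because the labels give them no meaning. Sequences are from RefSeq, GRCm38.p6. Values of 2 of the named genes are not reported here.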

Additional observations from a re-analysis of the deposited data

Results flagged for a closer look

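Within groups of 5 hearts, 22 of 288 gene and group pairs of the 72 named genes held 1 heart far from the other 4 (Dixon's ratio), where chance gives about 1 in 20 groups. In trained labelled knockout hearts these were replicate 1 for Ccl8 at 39.5 FPKM (others 7.66 to 16.8), replicate 3 for Rhd at 6.24 FPKM (others 5.22 to 5.47) and replicate 5 for Kcnip2 at 52.8 FPKM (others 43.3 to 44.4) and for Prdx2 at 78.2 FPKM (others 68.7 to 70.7). In sedentary labelled knockout hearts these were replicate 1 for Shld1 at 12.1 FPKM (others 26 to 28.4) and for Il1r1 at 2.3 FPKM (others 1.42 to 1.64), replicate 3 for Tnni3 at 1700 FPKM (others 1310 to 1330) and for Ldhb at 914 FPKM (others 766 to 789) and for Ndufs3 at 138 FPKM (others 123 to 127) and for Prdx5 at 156 FPKM (others 117 to 127) and for Zbtb7b at 5.22 FPKM (others 5.95 to 6.17), replicate 4 for Mir143 at 3.25 FPKM (others 0 to 0.78) and for Cilp at 16.3 FPKM (others 3.57 to 4.31) and replicate 5 for Thbs1 at 1.14 FPKM (others 2.03 to 2.27). In trained wild type hearts these were replicate 2 for Ccl8 at 3.88 FPKM (others 0.684 to 1.17) and for Cilp at 6.77 FPKM (others 0.983 to 2.31) and replicate 5 for Rhd at 5.41 FPKM (others 6.54 to 6.85). In sedentary wild type hearts these were replicate 1 for Gem at 1.11 FPKM (others 2.18 to 2.5), replicate 2 for Ltbp2 at 1.02 FPKM (others 0.281 to 0.468), replicate 3 for Pgam2 at 484 FPKM (others 631 to 677) and replicate 4 for Sesn1 at 47.3 FPKM (others 30.4 to 34.2) and for Ahsa1 at 23.2 FPKM (others 18.5 to 19.5). 

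The training change differed between the genotypes, by the limma interaction at an adjusted p under 0.05, for 70 of the 72 named genes, the exceptions being Gdf15 and Ppargc1a. These genes were named by that interaction, so the share follows from the choice, and 7.32% of all genes tested were called. For the 68 given here, the log2 interaction, labelled knockout minus wild type, was -2.36 for Arrdc2, -1.99 for Depp1, -1.59 for Shld1, -1.58 for Nmb, -1.46 for Tmem82, -1.44 for Mir208b, -1.4 for Timp4, -1.33 for Slc25a33, -1.32 for Tnni2, -1.27 for Clic3, -1.1 for Klf15, -1.1 for Acer2 and -1.01 for Slc25a47. Smaller negative values were -0.963 for Tnni3, -0.75 for Atp5g1, -0.747 for mt-Rnr1, -0.722 for Ldhb, -0.695 for Rhd, -0.684 for Mpc2, -0.677 for Hrc, -0.662 for Eci1, -0.662 for Ndufs3 and -0.658 for Prdx5. Next came -0.65 for Sesn1, -0.647 for Kcnip2, -0.642 for Pgam2, -0.64 for Mdh2, -0.634 for Il15ra, -0.628 for Iscu, -0.591 for Uqcrfs1, -0.559 for Apba3, -0.54 for Vegfb and -0.515 for Prdx2. The weakest negative ones were -0.49 for Fkbp4, -0.462 for Mccc2, -0.449 for Ahsa1, -0.443 for Echs1, -0.4 for Pdhb, -0.371 for Esrra and -0.365 for Sirt3. Positive values were 0.456 for Zbtb7b, 0.571 for Zfp36l2, 0.646 for Fgf2, 0.66 for Setd7, 0.671 for Pycr1, 0.717 for Tspyl5, 0.766 for Fhl1 and 0.791 for Il1r1. Larger ones were 0.843 for Ctsc, 0.936 for Igf1, 1.01 for Gem, 1.05 for Col6a2, 1.12 for Kcne1, 1.17 for C3, 1.2 for Ptafr, 1.22 for Bcl6 and 1.47 for Myh7. The largest were 1.58 for Thbs1, 1.93 for Timp1, 2.03 for Ltbp2, 2.05 for Serpina3n, 2.08 for Postn, 2.11 for Col3a1, 2.26 for Prg4, 2.29 for Mir143, 2.49 for Fbn1, 2.54 for Ccl8 and 2.93 for Cilp.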

How the results depend on the processing

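Of the settings tried, pseudocounts of 0.1 and 1, a minimum of 2 FPKM, recomputed median-ratio factors and robust variance moved no count named here by over 1.5 times. The cause of the moves below was not tested. Under TPM scaling there were 58 negative interactions, 240 training changes in wild type, and 0 reversed, 3 amplified, 8 lost, 384 knockout-only genes and 11 responding in neither genotype. Scaled to a common sum without the mitochondrial genome there were 627 positive and 66 negative interactions, 3 reversed and 3 amplified genes. With array weights there were 2380 positive and 2661 negative interactions, 6280 training changes in labelled knockout and 2639 in wild type, with 272 reversed, 71 amplified, 15 dampened, 978 lost, 3122 knockout-only and 583 in neither. With no filter on low values there were 204 and 425 interactions, 354 wild-type changes, and 1 reversed, 1 amplified, 16 lost, 585 knockout-only and 26 in neither. Voom on recovered reads gave 2 amplified genes and 36 in neither.

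With log2 Arntl as a covariate there were 83 positive and 184 negative interactions, 73 wild-type changes, and 0 reversed, 1 amplified, 3 lost, 263 knockout-only and 0 in neither. With log2 Myl7 and log2 Arntl there were 147 and 225 interactions, 125 wild-type changes, and 0, 1, 3, 361 and 7 genes in those classes. With log2 Myl7 alone there were 459 wild-type changes, 1 reversed, 4 amplified and 100 in neither. Without the high-Arntl libraries there were 1 positive and 0 negative interactions and 4 wild-type changes, with 1 reversed, 0 amplified, 0 lost, 0 knockout-only and 0 in neither, and the Gdf15 interaction turned to -0.0444 (limma adjusted p = 0.996, against 0.553 with all libraries). Without the high-Myl7 libraries there were 497 positive interactions, 39 wild-type changes, 0 reversed, 0 amplified and 7 lost genes. With log2 Arntl added to that, a combination chosen after seeing the data, there were 19 wild-type changes, 0 reversed, 0 amplified, 1 lost and 22 in neither. Counting an arm as responding at an unadjusted p under 0.05 gave 85 reversed, 76 amplified and 0 in neither, and at a log2 change of 0.5 gave 12 reversed, 575 knockout-only and 378 in neither.

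Replicate numbers are shared across the groups, and the labels give them no meaning. The deviations of same-numbered hearts correlated between -0.278 and 0.484 (median 0.0715), above 0.1 in 12 of 30 pairs. Every pair of groups was positive for replicate 1 (0.251 to 0.364) and for replicate 5 (0.0787 to 0.484). Signs were mixed for replicates 2, 3 and 4. Whether the numbers pair the samples is thus not settled, and the main fit leaves them out. A replicate block gave 455 positive and 850 negative interactions, 1664 training changes in wild type, 16 reversed, 23 amplified, 2 dampened and 146 lost genes.

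Leaving out 1 library gave 119 to 611 positive and 343 to 1087 negative interactions, 3112 to 4026 training changes in labelled knockout and 127 to 2311 in wild type. The classes held 1 to 34 reversed, 0 to 25 amplified, 0 to 1 dampened, 10 to 199 lost, 454 to 1300 knockout-only genes and 8 to 218 in neither. Positive and negative interactions numbered 611 and 1087 without replicate 1 of sedentary labelled knockout, and 532 and 1075 without replicate 5 of sedentary wild type, the libraries whose Arntl stands apart from their group, and 119 and 361 without replicate 3 of trained labelled knockout. They fell under the count with all libraries by over 1.5 times without replicate 1 (143 and 386) or 4 (133 and 371) of trained labelled knockout, replicate 2 (208 positive), 3 (144 and 343), 4 (202 and 437) or 5 (185) of sedentary labelled knockout, replicate 3 of trained wild type (163 and 401), and replicate 1 (138 and 366), 2 (133 and 359) or 3 (185 and 403) of sedentary wild type. Of the 70 named genes called, 41 kept the call without each library in turn, and 43 to 70 kept it in single such fits. Other settings also cost named genes their call. With all 20 libraries kept, 29 of the 70 lost it under TPM scaling, 29 with a common sum without the mitochondrial genome and 38 with log2 Arntl as a covariate. The fit without the high-Arntl libraries, which keeps 1 sedentary wild-type heart, is not in this tally. With no filter on low values 22 lost it. Depth of 14.2 to 30.4 M reads limits genes near 0.5 FPKM most.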

Other observations

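Marker lists of atria and fat are given here with the 4 high-Myl7 hearts, which are replicates 2 and 5 of trained labelled knockout and 4 and 5 of trained wild type. The list level, the mean over tested markers of log2(FPKM + 0.5) centred on the 20 libraries, was 3.85 and 3.66 for atrial markers in those labelled knockout hearts and -0.84 to -0.67 in the other 3, and 4.21 and 4.70 in those wild-type hearts and -1.74 to -1.47 in the other 3. For adipocyte markers it was 4.46 and 1.40 in those labelled knockout hearts and -1.07 to -0.88 in the other 3, and 4.20 and 2.70 in those wild-type hearts and -0.88 to -0.76 in the other 3. The median training change of the atrial markers was 2.46 in labelled knockout and 2.02 in wild-type hearts, and that of the adipocyte markers 1.58 and 1.65, with 0 of 10 and 0 of 8 training changes called by limma in either genotype. Epicardial markers had median training changes of 0.89 in labelled knockout hearts, where 2 of 8 rose, and 1.37 in wild type, where 1 rose. The high-Myl7 hearts' part in these medians was not tested.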
